A study of Mus musculus with 20 samples.

Results

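The natriuretic peptide system is described here in mouse heart ventricle through 8 of the 18193 genes named on the arrays. These were the peptide genes Nppa, Nppb and Nppc, the receptor genes Npr1, Npr2 and Npr3, and the convertase genes Corin and Furin. The 8 genes were chosen with earlier results of these data known. All probe sets whose platform annotation held exactly 1 of these symbols were then taken, without use of measured values, which gave 10 probe sets. Npr3 had 3 probe sets and each of the other 7 genes had 1.

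Every sample was the ventricle of a female C57BL/6 mouse whose ovaries were removed at 8 weeks of age, followed by 4 weeks with an osmotic minipump. Of the 20 arrays, 5 came from mice given 16α-LE2, an agonist of estrogen receptor α, and 5 from mice given 17β-estradiol, which acts on both estrogen receptors. A further 5 samples are titled beta, yet their treatment label states a control solution, so they are kept apart as the beta-titled group. The last 5 came from mice given placebo. Every group, placebo included, therefore lacked ovaries, and no mouse with intact ovaries was part of the comparison. The labels give no dose, so the agonists share a duration of treatment while their relative doses are unknown. The labels do not say in so many words that each sample is 1 animal, and p-values here measure only the spread between these samples. The title of the study names estrogen receptor α and glucose uptake in the heart. The comparisons below ask how the transcripts of this peptide system differed between the treatments.

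Cardiac muscle cells release the atrial natriuretic peptide, encoded by Nppa, and the brain natriuretic peptide, encoded by Nppb, when the heart wall is stretched. Both are made as longer precursors that proteases such as corin and furin cut. The peptides act on the receptor encoded by Npr1, a guanylyl cyclase that makes cyclic GMP. The C-type peptide encoded by Nppc acts on the related cyclase encoded by Npr2. The receptor encoded by Npr3 binds all of these peptides and clears them. In the healthy adult heart Nppa is mainly an atrial transcript, and its level in the ventricle is a common readout of load and hypertrophy.

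Nppa and Nppb are neighbours on chromosome 4. In the RefSeq records on GRCm38.p6, Nppa lies at chr4:148000722-148002074 and Nppb at chr4:147985786-147987205, with starts 14936 bp apart. The 250 bases before the start site that RefSeq's promoter table gives for each, on the plus strand, are shown because these 2 genes carried the largest differences among the members. The sequences are RefSeq's, at chr4:148000472-148000721 for Nppa and at chr4:147985650-147985899 for Nppb. The Nppb gene record, which covers several transcripts, begins inside this window, so the end of the window lies within the record. Capitals mark matches, on either strand, to GATAA (the core letters bound by GATA factors, TTATC on the other strand), to GGAATG (bound by TEAD factors) and to TNAAGTG (bound by Nkx2-5).
Nppa: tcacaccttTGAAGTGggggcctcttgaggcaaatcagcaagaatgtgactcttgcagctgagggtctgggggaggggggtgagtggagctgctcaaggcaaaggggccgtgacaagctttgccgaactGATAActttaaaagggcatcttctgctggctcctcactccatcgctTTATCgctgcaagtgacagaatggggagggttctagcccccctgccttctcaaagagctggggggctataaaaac
Nppb: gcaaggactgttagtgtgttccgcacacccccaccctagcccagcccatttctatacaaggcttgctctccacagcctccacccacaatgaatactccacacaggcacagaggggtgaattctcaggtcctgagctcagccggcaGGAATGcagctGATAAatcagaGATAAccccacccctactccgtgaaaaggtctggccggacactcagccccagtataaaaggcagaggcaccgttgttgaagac

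Both windows held GATAA on 2 occasions, in Nppa at positions -121 to -117 and -75 to -71 and in Nppb at -94 to -90 and -83 to -79, counted from the start site of the promoter table. TNAAGTG occurred once in the Nppa window, at -241 to -235, and GGAATG once in the Nppb window, at -105 to -100. None of the marked matches overlapped another, and all 3 in the Nppb window lie within the Nppb gene record. Of 32851 RefSeq promoter windows of this length, 22.6% held GATAA, 12.6% held GGAATG and 10.1% held TNAAGTG. The palindromic estrogen response element (GGTCA, 3 bases, TGACC), its single arm AGGTCA and the CArG box bound by serum response factor were not among the letters of either window. They occurred in 0.0639%, 14% and 1.47% of all windows. Only full matches were searched, over 10 letters for the CArG box, so near matches were not counted. A match is a description of the letters and not a bound site.

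The arrays were checked against markers before the members were read. The 7 markers of ventricular muscle cells had log2 values of 11.96 to 15.26 over the 20 arrays, in the upper part of the range of 5.07 to 15.31 over all probe sets. Among 6 atrial markers, Myl7 ranged from 6.96 to 11.40, Sln from 6.52 to 10.83 and Myl4 from 8.44 to 11.68, which are the light chain and sarcolipin genes of atrial muscle. Bmp10 stayed between 6.26 and 6.91. Kcnj3 ranged from 9.10 to 9.86 and Dkk3 from 7.34 to 8.23. Replicate 33 of the estradiol group stood apart, with a rank correlation of 0.922 to 0.941 with the other arrays. The SD of values within an array was 1.29 and 1.32 for beta-titled replicates 32 and 31 and 1.34 for estradiol replicate 33, and 1.37 to 1.48 for the other arrays, with no clear gap. The 3 arrays of lowest SD are named below as the narrow arrays, a choice made after seeing the data.

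Nppb, the brain natriuretic peptide gene, differed most among the members. Its level was highest after 16α-LE2 and lowest in the beta-titled group, with a 1.97-fold difference of the means (Nppb, probe set 1450791_at). Estradiol and placebo lay in between. In mice given 16α-LE2 the 5 samples had log2 values of 12.87, 12.99, 13.28, 12.91 and 13.19. Mice given estradiol had 12.96, 13.06, 12.70, 12.12 and 12.22. The beta-titled samples had 12.56, 11.73, 12.29, 12.00 and 11.76, against 12.90, 12.63, 12.35, 12.38 and 12.42 after placebo. Every 16α-LE2 sample was above every beta-titled sample. The estradiol samples spread most widely and overlapped all other groups, and 1 placebo sample reached into the range of the 16α-LE2 samples.

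The mean log2 level of Nppb was 13.05 ± 0.18 after 16α-LE2 and 12.07 ± 0.35 in the beta-titled group (SD, n = 5 each). The log2 difference was 0.98 ± 0.17 (SE), with a 95% interval of 0.62 to 1.34 and an adjusted p of 0.0334 in the limma fit over all 45037 probe sets. Nppb was 1 of 10 member probe sets that passed at an adjusted p under 0.05 in this comparison, beside 0.0355% of all probe sets. The exact permutation test gave 0.00794, the smallest p that 5 against 5 samples allow. Of all probe sets, 0.453% were separated without overlap in this direction. The pass was lost in 12 of 29 other settings, with log2 differences of 0.87 to 1.10 and adjusted p of 0.00681 to 0.135. Without the narrow arrays the log2 difference was 1.03 with an adjusted p of 0.0887, and 2 of those arrays were the highest and lowest Nppb values of the beta-titled group.

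Cell type markers were set beside this comparison of 16α-LE2 with the beta-titled group, in which 48.3% of all probe sets were above 0. The fibroblast marker means were 9.38 to 9.63 after 16α-LE2 and 9.77 to 10.05 in the beta-titled group, without overlap, and 5 of 6 fibroblast markers were below 0 (median log2 difference -0.13). Of these Col3a1, a fibrillar collagen gene, passed at -1.57 (limma, adjusted p = 0.000554). Col1a2 was at -0.66 and Col1a1 at -0.17, while Pdgfra, Dcn and Tcf21 were at -0.09, -0.00 and 0.02. The red blood cell marker means were 7.98 to 8.88 after 16α-LE2 and 7.72 to 8.04 in the beta-titled group. All 3 of these markers were above 0 (median 0.51) and none passed, with Slc4a1, the red cell anion exchanger, at 0.51 and Alas2, an enzyme of heme synthesis, at 0.83 (limma, adjusted p = 0.128 and 0.803). The remaining marker, Hba-a1, was at 0.07, with log2 means of 7.01 after 16α-LE2 and 6.94 in the beta-titled group. The endothelial marker means were 8.85 to 9.31 after 16α-LE2 and 9.03 to 9.37 in the beta-titled group. Of these 8 markers, 6 were below 0 (median -0.19) and none passed. Those not below 0 were Vwf at 0.62 (limma, adjusted p = 0.333) and Kdr at 0.00. All 7 ventricular muscle markers were above 0 (median 0.08) and none passed. Their means were 14.02 to 14.14 after 16α-LE2 and 13.92 to 14.16 in the beta-titled group. Of these 7 markers, 6 were lower in the beta-titled group than after placebo (median -0.13), and none passed. Between those groups 61.9% of all probe sets were above 0. The part of these shifts in the Nppb difference was not tested.

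Against placebo, Nppb after 16α-LE2 was 13.05 ± 0.18 on the log2 scale in treated mice and 12.54 ± 0.23 in placebo mice (SD, n = 5 each). The log2 difference of 0.51 ± 0.17 (SE), 1.43-fold, had a 95% interval of 0.16 to 0.87. It did not pass over all probe sets (limma, adjusted p = 0.493), with an unadjusted limma p of 0.00675 and an exact permutation p of 0.0159. All 5 treated samples were above the placebo mean and 4 were above every placebo sample. Against estradiol the Nppb difference was 0.44 (95% interval 0.08 to 0.80), with a limma adjusted p of 0.864 and an exact permutation p of 0.0714.

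Estradiol itself left Nppb close to placebo, at 12.61 ± 0.42 against 12.54 ± 0.23 (SD, n = 5 each). The log2 difference was 0.07 with a 95% interval of -0.28 to 0.43 (limma, adjusted p = 0.869). The beta-titled group was below placebo by a log2 difference of -0.47 (95% interval -0.83 to -0.11), with a limma adjusted p of 0.747 and an exact permutation p of 0.0556. Estradiol was above the beta-titled group by 0.54 (0.19 to 0.90), with a limma adjusted p of 0.878. In the order 16α-LE2, estradiol, placebo, beta-titled, no pair of neighbouring groups differed beyond the threshold. The test for any difference among the 4 groups gave Nppb an adjusted p of 0.119 in limma. In that test no member probe set passed, beside 0.0311% of all probe sets, and 3 of 10 had an unadjusted p under 0.05 (Nppa, Nppb and Corin), beside 5.65% of all.

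**Figure D1:**
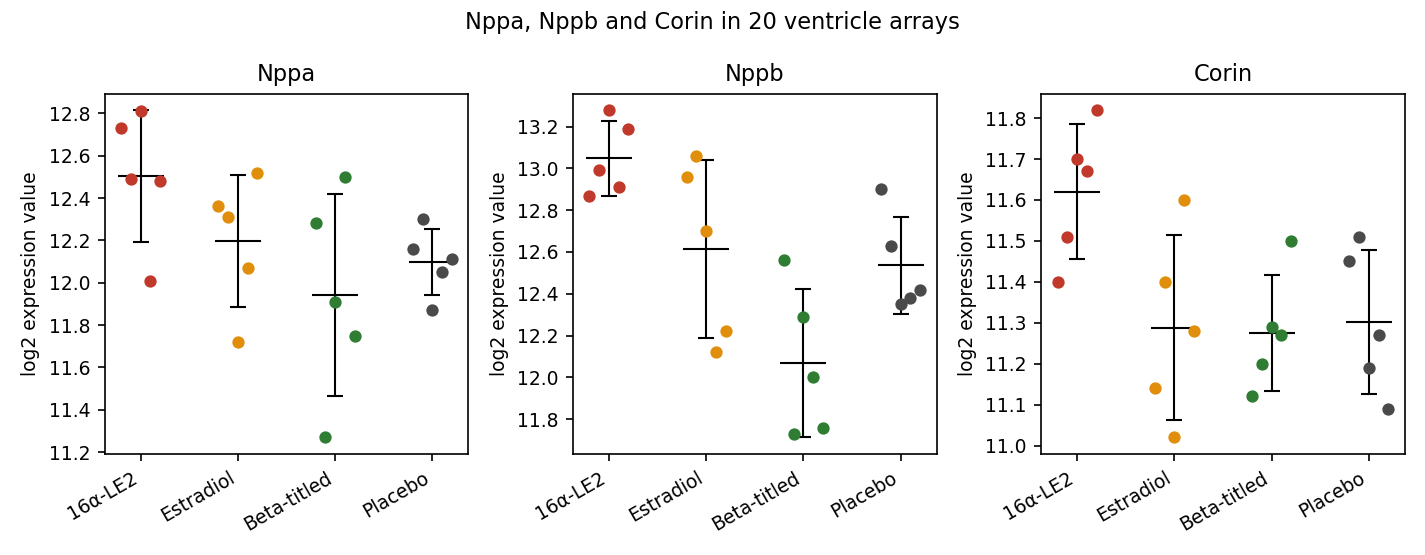
Log2 expression values of Nppa, Nppb and Corin by treatment group, 1 point per array, with the group mean and SD as bars (n = 5 per group). For Nppb the 16α-LE2 points lie at 12.87 to 13.28, above all beta-titled points at 11.73 to 12.56.

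Nppa, the atrial natriuretic peptide gene, had its highest mean after 16α-LE2 as well, but the groups overlapped in every comparison (probe set 1456062_at). Values after 16α-LE2 were 12.73, 12.49, 12.81, 12.01 and 12.48 on the log2 scale. After estradiol they were 12.36, 12.31, 11.72, 12.07 and 12.52. The beta-titled samples had 12.28, 11.27, 11.91, 12.50 and 11.75, against 12.16, 12.30, 11.87, 12.05 and 12.11 after placebo. Of the 16α-LE2 samples, 4 were above every placebo sample and 1 lay among them. The lowest value of all was a beta-titled sample, one of the narrow arrays, and the placebo samples varied least.

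The mean log2 level of Nppa was 12.50 ± 0.31 after 16α-LE2 and 12.10 ± 0.16 after placebo (SD, n = 5 each). The log2 difference was 0.41 ± 0.19 (SE), 1.33-fold, with a 95% interval of 0.03 to 0.79, and it did not pass (limma, adjusted p = 0.652, exact permutation p = 0.0397). Against the beta-titled group it was 0.56 (0.18 to 0.95), 1.48-fold, with a limma adjusted p of 0.815 and an exact permutation p of 0.0635. Against estradiol it was 0.31 (-0.07 to 0.69), with a limma adjusted p of 0.864. Estradiol was 0.10 above placebo and the beta-titled group was -0.16 from placebo, with limma adjusted p of 0.829 and 0.832.

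Corin, the transmembrane protease of heart muscle that cuts the precursor of the atrial peptide, was also highest after 16α-LE2, while its means in the other groups lay within 0.03 of each other on the log2 scale (probe set 1419017_at). The 16α-LE2 samples had log2 values of 11.40, 11.51, 11.70, 11.67 and 11.82. The estradiol samples had 11.14, 11.40, 11.02, 11.60 and 11.28. The beta-titled samples had 11.12, 11.20, 11.29, 11.27 and 11.50, against 11.45, 11.51, 11.19, 11.27 and 11.09 after placebo. The groups overlapped at 11.40 to 11.60, where the lowest 16α-LE2 samples met the highest samples of the other groups.

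Corin averaged 11.62 ± 0.17 after 16α-LE2 and 11.30 ± 0.18 after placebo (SD, n = 5 each). The log2 difference of 0.32 ± 0.12 (SE), 1.25-fold, had a 95% interval of 0.08 to 0.56 and did not pass (limma, adjusted p = 0.544, exact permutation p = 0.0317). The difference was 0.33 (0.09 to 0.58) against estradiol and 0.35 (0.10 to 0.59) against the beta-titled group, with limma adjusted p of 0.838 and 0.91. After estradiol Corin differed from placebo by -0.02, with a 95% interval of -0.26 to 0.22 (limma, adjusted p = 0.959). The 3 comparisons that have 16α-LE2 on top share the same treated samples, so they are not separate evidence for these genes.

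Counted over the members, none of the 10 probe sets passed for 16α-LE2 against placebo, beside 0.0533% of all probe sets. At an unadjusted limma p under 0.05, 3 of 10 were higher, which were Nppa, Nppb and Corin, beside 3.54% of all probe sets. None passed for 16α-LE2 against estradiol, beside 0.00888% of all, where 2 of 10, Nppb and Corin, were higher at an unadjusted p under 0.05, beside 4.1% of all. For estradiol against placebo none of the 10 passed in limma, beside 0% of all, and none had an unadjusted p under 0.05, beside 8.18% of all. None passed for the beta-titled group against placebo, beside 0% of all, and 1 of 10, Nppb, was lower at an unadjusted p under 0.05, beside 2.54% of all. Estradiol against the beta-titled group gave no pass among members, beside 0% of all, and 1 of 10, again Nppb, higher at an unadjusted p under 0.05, beside 1.16% of all. Against the beta-titled group, 16α-LE2 had 3 of 10 higher at an unadjusted p under 0.05, again Nppa, Nppb and Corin, beside 1.38% of all. The 16α-LE2 group had the highest mean for 3 of 10 member probe sets, and for 22.4% of all probe sets. The members were chosen with earlier results of these data known, so these shares are a description and not a test.

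**Figure D2:**
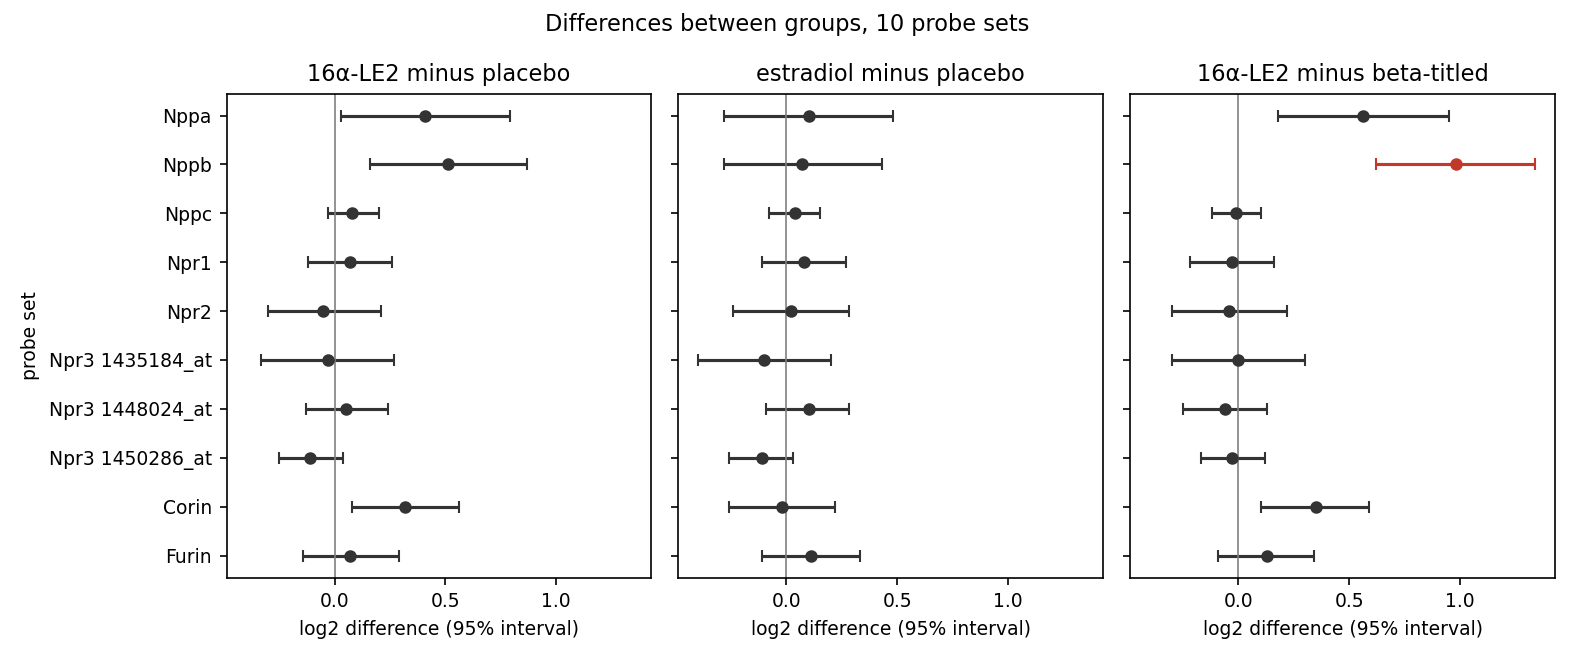
Log2 differences with 95% intervals for the 10 member probe sets, for 16α-LE2 minus placebo, estradiol minus placebo and 16α-LE2 minus beta-titled. The Nppb difference from the beta-titled group, 0.98, is drawn in red as the one that passed at an adjusted p under 0.05.

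The genes for the other ligand, the receptors and furin stayed close to placebo. Over their 7 probe sets and 6 comparisons the 42 log2 differences ran from -0.11 to 0.16, and their 95% intervals lay between -0.40 and 0.38. The smallest unadjusted limma p among them was 0.1 and the smallest adjusted p was 0.579. These intervals are the sizes that the arrays leave possible, and they do not show that the levels were equal.

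Nppc, the C-type peptide gene (1422790_at, chr1:86666293-86670573), had values below the median of all probe set means, 6.93. It ranged from 6.28 to 6.38 after 16α-LE2, from 6.12 to 6.44 after estradiol, from 6.25 to 6.43 in the beta-titled group and from 6.16 to 6.32 after placebo. The groups overlapped. The log2 difference of 0.08 between 16α-LE2 and placebo had a 95% interval of -0.03 to 0.20 (limma, adjusted p = 0.754, exact permutation p = 0.0397). With values this low on the array, a level of Nppc is not separated from background.

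Npr1, the cyclase receptor for the atrial and brain peptides (1449160_at, chr3:90450591-90465928), averaged 7.04 ± 0.09 after 16α-LE2, 7.05 ± 0.29 after estradiol, 7.07 ± 0.07 in the beta-titled group and 6.97 ± 0.08 after placebo (log2, SD, n = 5 each). The wide spread after estradiol came with replicate 33 at 7.49, while the other estradiol samples had 7.15, 6.83, 6.80 and 6.97. The log2 difference from placebo was 0.07 after 16α-LE2 (-0.12 to 0.26) and 0.08 after estradiol (-0.11 to 0.27), with limma adjusted p of 0.877 and 0.72. Without the narrow arrays the estradiol difference turned to -0.03. With a mean of 7.03 over all arrays, near the median of all probe set means, a level of Npr1 is not separated from background.

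Npr2, the receptor of the C-type peptide (1427191_at, chr4:43629015-43651437), averaged 8.18 ± 0.24 after 16α-LE2, 8.25 ± 0.26 after estradiol, 8.22 ± 0.16 in the beta-titled group and 8.23 ± 0.16 after placebo (log2, SD, n = 5 each). Its log2 differences from placebo were -0.05 after 16α-LE2 (-0.30 to 0.21) and 0.02 after estradiol (-0.24 to 0.28). Every group held samples both above and below the placebo mean.

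Npr3, the clearance receptor gene (chr15:11839896-11907837), was read by 3 probe sets. The brightest, 1435184_at, averaged 8.69 ± 0.22 after 16α-LE2, 8.62 ± 0.24 after estradiol, 8.69 ± 0.23 in the beta-titled group and 8.72 ± 0.32 after placebo (log2, SD, n = 5 each). Its log2 difference from placebo was -0.03 after 16α-LE2 (-0.33 to 0.27) and -0.10 after estradiol (-0.40 to 0.20). The other probe sets, 1448024_at and 1450286_at, lay below the median of all probe set means. They differed from placebo by 0.05 and -0.11 after 16α-LE2, so the 3 probe sets did not share a direction, and none of these differences passed. Within groups the probe sets followed each other only in part. Over the 20 arrays, with values centred on group means, their Pearson correlations were 0.69, 0.45 and 0.10, as a description of probe sets read from the same arrays.

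Furin, a widely expressed convertase that can cut natriuretic peptide precursors (1418518_at, chr7:80389194-80405441), averaged 8.82 ± 0.21 after 16α-LE2, 8.86 ± 0.21 after estradiol, 8.70 ± 0.07 in the beta-titled group and 8.75 ± 0.09 after placebo (log2, SD, n = 5 each). Single samples at 9.18 in the 16α-LE2 and in the estradiol group stood above the rest. The log2 differences from placebo were 0.07 after 16α-LE2 (-0.14 to 0.29) and 0.11 after estradiol (-0.11 to 0.33), and neither passed (limma, adjusted p = 0.89 and 0.666).

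**Figure D3:**
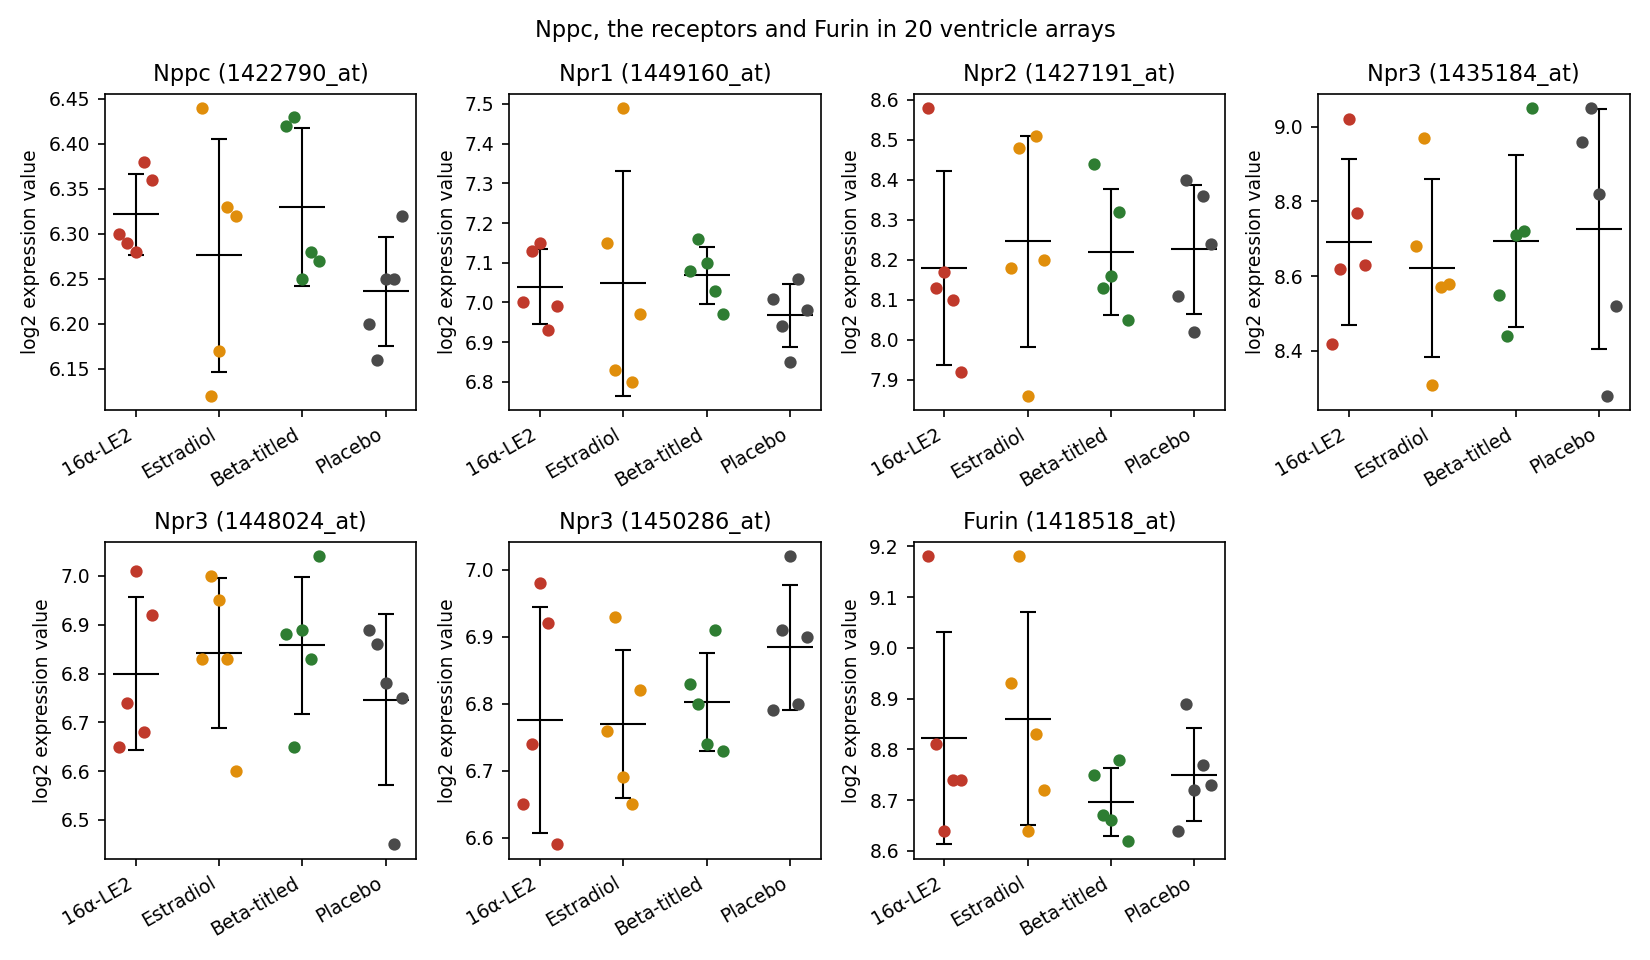
Log2 expression values of Nppc, Npr1, Npr2, the 3 probe sets of Npr3, and Furin by treatment group, 1 point per array, with the group mean and SD (n = 5 per group). The groups overlap in every panel, and the axes span narrow ranges, such as 6.12 to 6.44 for Nppc.

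Nppa is an atrial transcript, so its values were set beside the atrial markers. A ventricle sample is a mixture of cells, and in it fewer cells of a type cannot be told apart from less RNA per cell. The mean of the 6 atrial markers was 8.49 ± 0.69 after 16α-LE2, 8.67 ± 0.61 after estradiol, 8.47 ± 0.42 in the beta-titled group and 8.45 ± 0.38 after placebo (log2, SD, n = 5 each). No atrial marker passed in any comparison. Across the 20 arrays, with both measures centred on their group means, Nppa had a Pearson correlation of 0.53 with the atrial mean (permutation p = 0.0266) and a Spearman correlation of 0.49 (permutation p = 0.0475). Adjusted over the 6 relations computed, the p were 0.16 and 0.285. Without the 2 samples farthest from the median of the atrial mean the Pearson correlation was 0.37.

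For Nppb the same relation had a Pearson correlation of -0.21 (permutation p = 0.438, adjusted 0.657) and a Spearman correlation of -0.14 (permutation p = 0.569, adjusted 0.656), and the Pearson value was -0.15 without the 2 farthest samples. With the atrial mean as a covariate, an alternative chosen after seeing the data, the Nppb difference between 16α-LE2 and the beta-titled group was again 0.98 (limma, adjusted p = 0.0382). The Nppa difference between 16α-LE2 and placebo was then 0.39 (limma, adjusted p = 0.657).

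**Figure D4:**
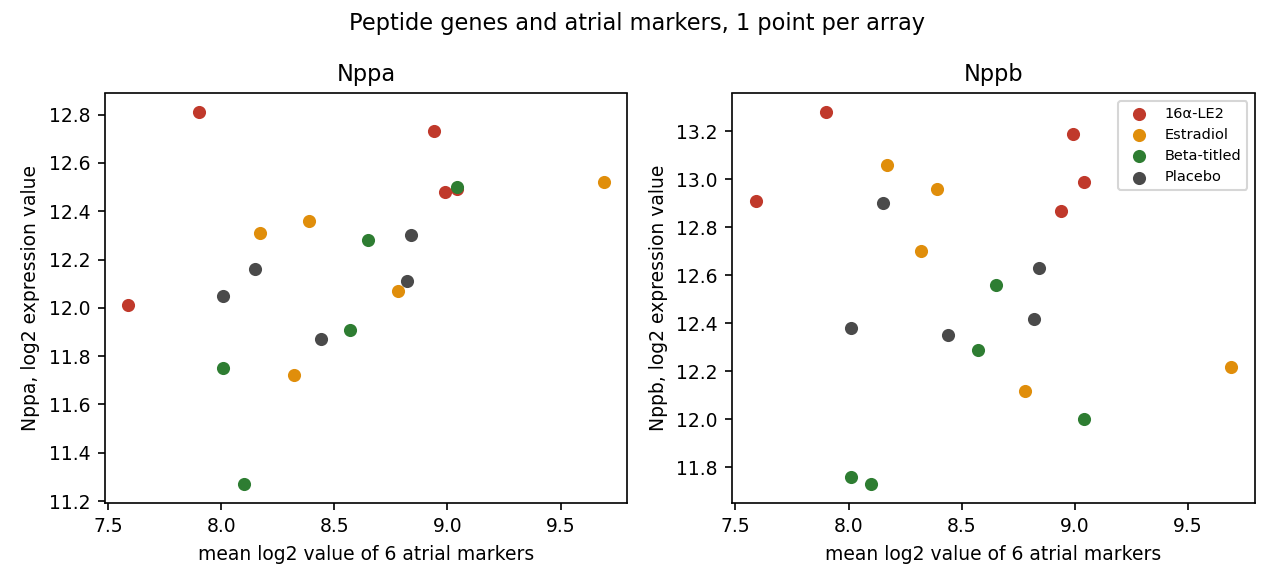
Log2 values of Nppa and of Nppb against the mean log2 value of 6 atrial markers, 1 point per array, coloured by treatment group. The 16α-LE2 samples span atrial means from 7.59 to 9.04, and all of them have Nppb values of 12.87 or more.

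Nppa and Nppb, which often rise together under load, were compared sample by sample. With group means removed their Pearson correlation was 0.35 (permutation p = 0.201, adjusted 0.603) and their Spearman correlation 0.40 (permutation p = 0.127, adjusted 0.381). Without group centring the Pearson correlation was 0.61 (p = 0.00419 by permutation across all 20 arrays, adjusted 0.0251), a value that includes the differences between groups. The uncentred Spearman correlation was 0.49 (permutation p = 0.0292, not adjusted). The group-centred Pearson value was 0.33 without the 2 farthest samples.

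Myh7, the slow myosin heavy chain gene that is often read beside both peptides in hypertrophy, was 11.01 ± 0.40 after 16α-LE2, 9.84 ± 0.35 after estradiol, 10.11 ± 0.30 in the beta-titled group and 9.66 ± 0.51 after placebo (log2, SD, n = 5 each). It rose against placebo, by 1.35 ± 0.22 (SE), 2.55-fold (limma, adjusted p = 0.0126). Without 16α-LE2 replicate 34, placebo replicate 31 or placebo replicate 33 its limma adjusted p was 0.0582 to 0.0697, and it was 0.0729 with only these groups fitted. Whether Myh7 and the peptide genes differ in their response was not tested. Within groups Myh7 had Pearson correlations of 0.22 with Nppa (permutation p = 0.33, adjusted 0.657) and of -0.14 with Nppb (permutation p = 0.55, adjusted 0.66). The Spearman values were 0.11 (permutation p = 0.656) and -0.23 (permutation p = 0.344), each with an adjusted p of 0.656. Without the 2 farthest samples the Pearson values were 0.32 and -0.16.

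The genes whose group-centred values were most like Nppa over the 20 arrays, among 12082 genes, were Exosc5 (Pearson r = 0.83), Prrg2 and Fadd (0.82 each), and H2ac19 and St6galnac4 (0.80 each). For Nppb they were Wdr38 (0.76), Rassf9 and Cald1 (0.73 each), Stard4 (0.72) and Meox1 (0.71). For Npr3 they were Eif4g2 and Gpm6a (0.88 each), Ndufc1 (0.87), and Tm9sf2 and Septin7 (0.85 each). The lists had no gene in common. These values are the largest among many genes on shared arrays and are given as a description.

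Beyond the members, 4 lists of pathway genes were read between 16α-LE2 and placebo, and Myh7 was the only gene in them that passed. Of 6 genes for peptide processing and clearance, 5 had a probe set and none passed. Their median log2 difference was -0.08, beside 0.02 for all probe sets. Pcsk6, a convertase that activates corin, had 7.87 after 16α-LE2 and 8.12 after placebo (difference -0.25, limma adjusted p = 0.548), and Mme, the peptide-cleaving enzyme neprilysin, had a difference of -0.13.

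Of 26 genes of cyclic GMP signalling, 25 had a probe set and none passed. Their median log2 difference was -0.08, with 8 above and 17 below 0, beside 61.3% of all probe sets above 0. The smallest p belonged to Rgs4, a regulator of G-protein signalling, at 8.22 after 16α-LE2 and 8.55 after placebo (difference -0.33 ± 0.08 SE, limma adjusted p = 0.2). Gucy1b1, a subunit of the soluble guanylyl cyclase that nitric oxide activates, had a difference of -0.35 (limma, adjusted p = 0.322). Rgs5, which marks pericytes, and Pde9a, a phosphodiesterase that breaks down cyclic GMP, had differences of -0.33 and -0.15.

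Among 27 transcription factors and cofactors known for the Nppa and Nppb promoters, 26 had a probe set and none passed (median log2 difference -0.01). Of these, 12 were above and 14 below 0, beside 61.3% of all probe sets above 0. The smallest p were those of Tbx20 at -0.32, Yy1 at -0.23, Gata4 at -0.20 and Rest at -0.21, with limma adjusted p of 0.567 to 0.72. Of 14 stretch and hypertrophy genes, 11 had a probe set, and Myh7 was the only one that passed (median -0.07). Postn, the matrix protein periostin, had a difference of -0.87 ± 0.20 SE (limma, adjusted p = 0.141), and Xirp1, an actin-binding protein of muscle, had 0.27. Against the beta-titled group, the comparison in which Nppb passed, no gene of these 4 lists passed.

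Markers of other cell types were also read against placebo, and of all of them only Col3a1 passed for 16α-LE2. For 16α-LE2 against placebo, 7 of 8 endothelial markers were below 0 (median log2 difference -0.31) and none passed. The other, Vwf, was at 0.66 (limma, adjusted p = 0.177). Endothelial marker means were 8.85 to 9.31 in 16α-LE2 samples and 9.14 to 9.49 in placebo samples. Of all probe sets, 61.3% were above 0 in this comparison. All 6 fibroblast markers were below 0 (median -0.24), with marker means of 9.38 to 9.63 after 16α-LE2 and 9.63 to 10.10 after placebo, and 1 passed, the collagen gene Col3a1. Col3a1 was at -1.48, Col1a2 at -0.60 and Pdgfra at -0.31, while Dcn, Col1a1 and Tcf21 were at -0.16, -0.11 and -0.00. All 3 red blood cell markers with a probe set were above 0 (median 0.57), with marker means of 7.98 to 8.88 after 16α-LE2 and 7.57 to 8.01 after placebo, and none passed. Alas2 was at 0.95 and Slc4a1 at 0.57, while Hba-a1 was at 0.06. No smooth muscle, macrophage, ventricular muscle or conduction marker passed in any comparison. The median differences of these lists for 16α-LE2 against placebo were -0.33, 0.01, -0.05 and 0.05. Of the smooth muscle markers, Acta2, Pdgfrb and Rgs5 were at -0.38, -0.34 and -0.33, while Myh11 and Tagln were at 0.30 and 0.10. Genes of the Y chromosome, which these mice lack, had list means of 6.29 to 6.48 over the 20 arrays. The part of these shifts in the values of Nppa, Nppb and Corin was not tested. Npr3, which endothelium expresses, had a group-centred Pearson correlation of 0.04 with the endothelial mean (permutation p = 0.863, also after adjustment) and a Spearman correlation of 0.14 (permutation p = 0.582, adjusted 0.656), and the Pearson value was 0.16 without the 2 farthest samples.

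The call of Nppb between 16α-LE2 and the beta-titled group depended on single arrays. Leaving out 16α-LE2 replicates 30, 32, 33 or 34, beta-titled replicates 32, 33, 35 or 36, or placebo replicate 32 ended the call, with limma adjusted p of 0.0516 to 0.119. The log2 difference stayed between 0.90 and 1.10 over all 20 such fits. Leaving out the highest beta-titled sample, replicate 31, gave the largest difference, 1.10.

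**Figure D5:**
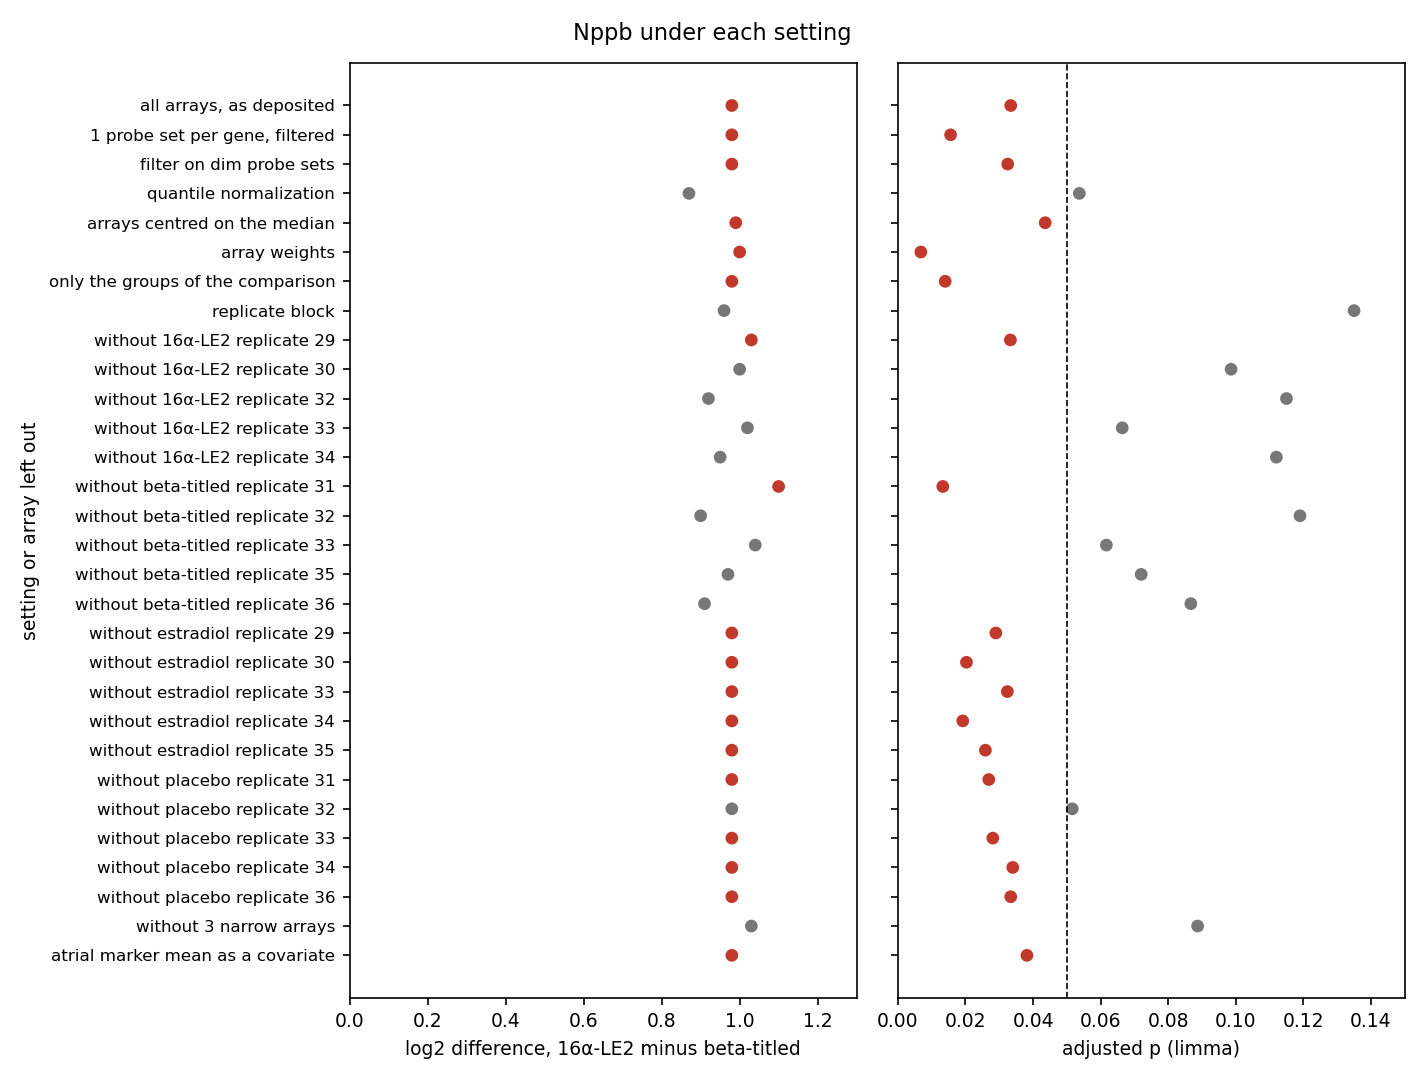
Log2 difference of Nppb, 16α-LE2 minus beta-titled (left), and its adjusted p in limma (right), for the values as deposited and 29 other settings, with the threshold of 0.05 as a dashed line. Red points pass. The difference stays between 0.87 and 1.10 while the adjusted p lies on both sides of the line.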

How the data were processed

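Total RNA of mouse ventricle, 100 ng per sample, was labelled with biotin and read on Affymetrix arrays, per the labels. The deposited values are 1 log2 value for each of 45101 probe sets and 20 arrays. The log2 base was read from the values. How the authors summarized and normalized them is not given in the sources used here, so a change of 1 is taken as 2-fold on that reading.

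Leaving out 64 control probe sets, the remaining 45037 were fitted without further scaling in R 4.3.3 with limma 3.58.1 (lmFit with group means of all 4 groups, eBayes with trend). Two-sided p were adjusted by Benjamini-Hochberg over all probe sets of a comparison, with a threshold of 0.05. A 95% interval of a difference between groups reached 0.158 to either side at the median probe set. Exact permutation tests compared single probe sets, and correlations of group-centred values used 100000 permutations within groups, and those of uncentred values 100000 across all arrays (Python 3.11.15, scipy 1.17.1). Figures were drawn with matplotlib 3.10.9. The fit was tested on simulated data with independent normal noise, spread alike in every array. Such data do not cover an array that stands apart.

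Named genes were the 8 members with all their probe sets, the 5 genes most like Nppa, Nppb and Npr3, Myh7, and from each of 4 pathway lists those that passed and at most 4 others of smallest p. Members, gene lists and cell type markers were chosen with earlier results of these data known. A gene of several probe sets was read by the one of highest mean, and genes of the lists without a probe set of 1 symbol were not analysed here. Alternatives were another scaling, filter, weighting, block, control or set of arrays.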

Additional observations from a re-analysis of the deposited data

How the results depend on the processing

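The number of arrays limits the precision, and no background per probe was used. The low values of Nppc, of Npr1 and of 2 Npr3 probe sets can therefore not be separated from background. The fitted values are the deposited ones. 2 alternatives, without the narrow arrays and with the atrial mean as a covariate, were chosen after seeing the data.

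1 member probe set, Nppb, passed between 16α-LE2 and the beta-titled group. That number was 0 under quantile normalization (log2 difference 0.87, limma adjusted p = 0.0537), with the replicate block and without the narrow arrays, and it ran from 0 to 1 over the fits that leave out 1 array. The cause was not tested, beyond that fewer samples enter some of these fits. In the test of any difference the number of members that passed was 0, and 1 with array weights. Between 16α-LE2 and placebo it was 0, and also 0 with placebo and beta-titled samples pooled as control. The number of all probe sets that passed between 16α-LE2 and the beta-titled group was 16, against 34 with quantile normalization, 10 with arrays centred on the median, 97 with array weights, 72 with only the groups of the comparison, 9 with the replicate block and 4 without the narrow arrays. Between 16α-LE2 and placebo it was 24, against 13 with quantile normalization, 36 with the filter on dim probe sets, 68 with pooled controls, 57 without the narrow arrays, 38 with the replicate block, 8 with only the groups of the comparison and 319 with array weights. Over fits that leave out 1 array these numbers ran from 6 (without 16α-LE2 replicate 30) to 41 (without estradiol replicate 33) against the beta-titled group, and from 7 (without placebo replicate 31) to 64 (without estradiol replicate 33) against placebo.

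Same-numbered samples of different groups had correlations of -0.378 to 0.434 over 17 pairs, so the numbers were not taken to pair the samples. With the replicate block Nppb between 16α-LE2 and the beta-titled group was 0.96 with a limma adjusted p of 0.135.

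All changes of sign were in log2 differences of at most 0.16 in size, or in correlations, none of which passed. Under quantile normalization these were Nppa beta-titled minus placebo at 0.03, Npr2 and Npr3 16α-LE2 minus placebo at 0.01 and 0.05, Corin estradiol minus placebo at 0.13, beta-titled minus placebo at 0.16 and estradiol minus beta-titled at -0.03, and the correlation of Npr3 with the endothelial mean at -0.33. With the replicate block they were Nppa at -0.06, Npr2 at -0.08, Corin at 0.06 and Furin at -0.05 for estradiol minus placebo, Npr3 at 0.02 and Furin at -0.08 for 16α-LE2 minus placebo, and Corin at 0.01 for beta-titled minus placebo. With array weights they were Nppb at -0.02 and Npr1 at -0.03 for estradiol minus placebo. Without the narrow arrays they were Npr1 at -0.03 and Corin at 0.05 for estradiol minus placebo and Corin at 0.05 for beta-titled minus placebo. Nppc estradiol minus placebo was -0.01 with placebo and beta-titled samples pooled, and Npr2 was -0.02 with arrays centred on the median. The correlation of Nppb with Myh7 was 0.34 without centring on group means. That of Nppa with Nppb kept its sign and was 0.61 without centring, where it passed (permutation across all arrays, adjusted p = 0.0251).

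Over fits that leave out 1 array, estradiol minus placebo ran from -0.04 to 0.20 for Nppb, -0.01 to 0.07 for Nppc, -0.03 to 0.14 for Npr1, -0.05 to 0.11 for Npr2 and -0.10 to 0.05 for Corin. 16α-LE2 minus placebo ran from -0.15 to 0.02 for Npr2, -0.14 to 0.05 for Npr3 and -0.02 to 0.12 for Furin. Beta-titled minus placebo ran from -0.30 to 0.01 for Nppa and -0.08 to 0.02 for Corin, estradiol minus beta-titled from -0.07 to 0.08 for Corin, and the correlation of Npr3 with the endothelial mean from -0.14 to 0.23. Myh7 between 16α-LE2 and placebo no longer passed with only these groups fitted (adjusted p = 0.0729), without 16α-LE2 replicate 34 or without placebo replicates 31 or 33 (0.0582 to 0.0697 in limma). Postn (0.0108) and Rgs4 (0.0154) passed with array weights, and Postn also with pooled controls (0.0182). Of 1242 alternative values for log2 differences of members and named genes, 1178 kept their direction and their side of the threshold.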
